A study of Bos taurus with 50 samples.

Results

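In endometrium of lactating dairy cows sampled at 5 and 9 weeks postpartum, 41 genes of the ubiquitin and proteasome system were followed over 50 libraries and 6 groups. They were selected on measured values: each carries a symbol in the lists that the study gave of genes differing by ovarian cyclicity, by week or by microbiota principal component (PC), and that symbol begins with a stem such as USP, UBE2, RNF, TRIM, KLHL, HERC or PSM. The 41 genes were 41 of the 2321 listed genes with a symbol and of the 18830 genes in the count table, all 41 were in that table, and all 41 passed the filter on low counts. By the study's lists, 14 were chosen for week 5 cyclicity, 19 for the change from week 5 to week 9 in cows not cycling at week 5, 3 for that change in cows cycling at week 5, and 9 by a microbiota PC alone; 6 genes stood in more than one list. Further lists of the study, for other microbiota PCs at week 9, were not used here, neither to choose genes nor to find symbols. In the comparison that chose a gene, its values are therefore a description without a test. The stems also took in genes that are neither ligases nor deubiquitinases: USP6NL is a GTPase-activating protein for Rab GTPases, PSMA2 is a subunit of the proteasome, PSMG4 is one of its assembly chaperones, and TRIM44 lacks the RING domain of its family.

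Ubiquitin is passed from an activating enzyme (E1) to a conjugating enzyme (E2), and a ligase (E3) then joins it to a substrate. RING ligases hold the charged E2 beside the substrate, HECT ligases take the ubiquitin onto themselves first, and cullin-RING ligases are built on a cullin scaffold with exchangeable receptors that choose the substrate. Chains of ubiquitin send many proteins to the proteasome, and deubiquitinases take ubiquitin off again. In the endometrium, protein turnover of this kind accompanies the remodelling that estrogen and progesterone (P4) bring about over the estrous cycle.

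Groups followed the sample labels. The first-lactation cows, of Holstein and Jersey descent, were biopsied at both weeks, and each library came from 1 biopsy, with nothing in the labels to link the libraries of a cow. CycW5 cows were cycling under P4 at week 5 (10 libraries at week 5 and 10 at week 9), NoCycW5 cows were not yet cycling at week 5 (12 and 11), and CycNoP4 cows were cycling without P4 at week 5 (4 and 3). Before week 9, every cow received GnRH, a P4-releasing vaginal insert and prostaglandin F2α to synchronize ovulation, so the week 9 groups differ in their history at week 5 and all carry this treatment, and the step from week 5 to week 9 cannot be told apart from it. Reads counted on genes ranged from 21592867 to 32813237 per library. Library numbers are those of the labels. The study made its lists from part of the CycW5 and NoCycW5 cows, and which libraries came from these cows is not known. Levels are CPM, in which TMM factors scale each library's reads to a common total; CPM is not corrected for gene length and is compared only within a gene.

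Several libraries lay at the edge of their group. Library 57 was the lowest of the 10 CycW5 libraries at week 5 for 18 of the 41 genes, and library 70 was the highest for 15. At week 9, library 89 was the lowest of the CycW5 libraries for 17 genes. Among the NoCycW5 libraries, library 63 was the lowest for 11 genes at week 5, and libraries 76 and 91 were each the lowest for 13 at week 9, where they had the 2 lowest EPCAM levels of their group (212 and 264 CPM). EPCAM was below the group median in library 89 (173 against 492 CPM) and library 63 (190 against 206). It was above the median of 287 CPM in libraries 57 (303) and 70 (666). The comparisons that hold these libraries were also made without each of them. In bulk tissue, fewer cells of a type and less RNA per cell cannot be told apart. Of 10 epithelium markers listed for the comparison, 4 could be matched to an identifier, all through the study's own lists, and none was at 0 in any library: EPCAM, KRT8, CLDN4 and OVOL2. Their summed level at week 5 was 341 ± 73.5 CPM in NoCycW5 (SD, n = 12), 633 ± 309 in CycW5 (n = 10) and 643 ± 198 in CycNoP4 libraries (n = 4), and at week 9 it was 809 ± 287, 776 ± 243 and 714 ± 271 (n = 11, 10 and 3), EPCAM having the most reads of the 4. VWF and CDH5, the 2 endothelium markers matched of 6, summed to 388 ± 106, 231 ± 59.5 and 295 ± 73.1 CPM at week 5 and to 268 ± 72.3, 291 ± 90.7 and 259 ± 39.8 CPM at week 9, in the same order of groups. PDGFRA, the 1 stroma marker matched of 9, was 489 ± 109, 465 ± 135 and 444 ± 201 CPM at week 5 and 598 ± 127, 611 ± 192 and 752 ± 235 CPM at week 9. Leukocyte, ciliated cell and smooth muscle markers had no matched identifier and were not analysed here. A marker could be matched only where the lists used here held it: KRT8, VWF and CDH5 were listed for week 5 cyclicity, CLDN4, OVOL2 and PDGFRA for the change in NoCycW5 cows, and EPCAM for the change in CycW5 cows. That matched markers differ between groups is therefore partly set by how they were found, and is a description. The summed epithelium markers were lowest and the summed endothelium markers highest in the NoCycW5 libraries of week 5, which enter most of the comparisons below, and their part in those results was not tested.

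At week 5, 24 of the 41 genes had more RNA in CycW5 than in NoCycW5 libraries at a BH P of 0.05 or less and 4 had less, where 26.6% of the 15483 genes tested were called (15.2% higher and 11.4% lower). From week 5 to week 9 in NoCycW5 cows, 26 of the 41 were called higher and 6 lower, where 35.7% of all genes were called (19.4% higher and 16.3% lower). Both counts hold genes that the same comparisons had chosen, 13 of the 14 and 19 of the 19 being called again, so nothing is read from them. The exception was KLHL14, a BTB-kelch adaptor, which all libraries together did not call at week 5. Of the 27 genes not chosen for week 5 cyclicity, 11 were higher and 4 lower in CycW5 cows (BH P of 0.05 or less), and 14 of these 15 had been chosen by a comparison that used one of the same week 5 groups. Without CycW5 library 57 the number called was 17, without library 70 it was 12, and without NoCycW5 library 63 it was 13. The NoCycW5 libraries of week 5 enter both comparisons, so a gene chosen in one for its level in them is favoured to differ in the same sense in the other. The P values given below at week 5 for genes chosen by the change, and over the weeks for genes chosen at week 5, are thus not independent of the choice. Among the former are RNF149, RNF157, RNF6, TRIM32, PSMG4 and USP6NL. Among the 9 genes chosen by microbiota alone, 1 (11.1%) was called at week 5 and 1 in the NoCycW5 cows.

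**Figure D1:**
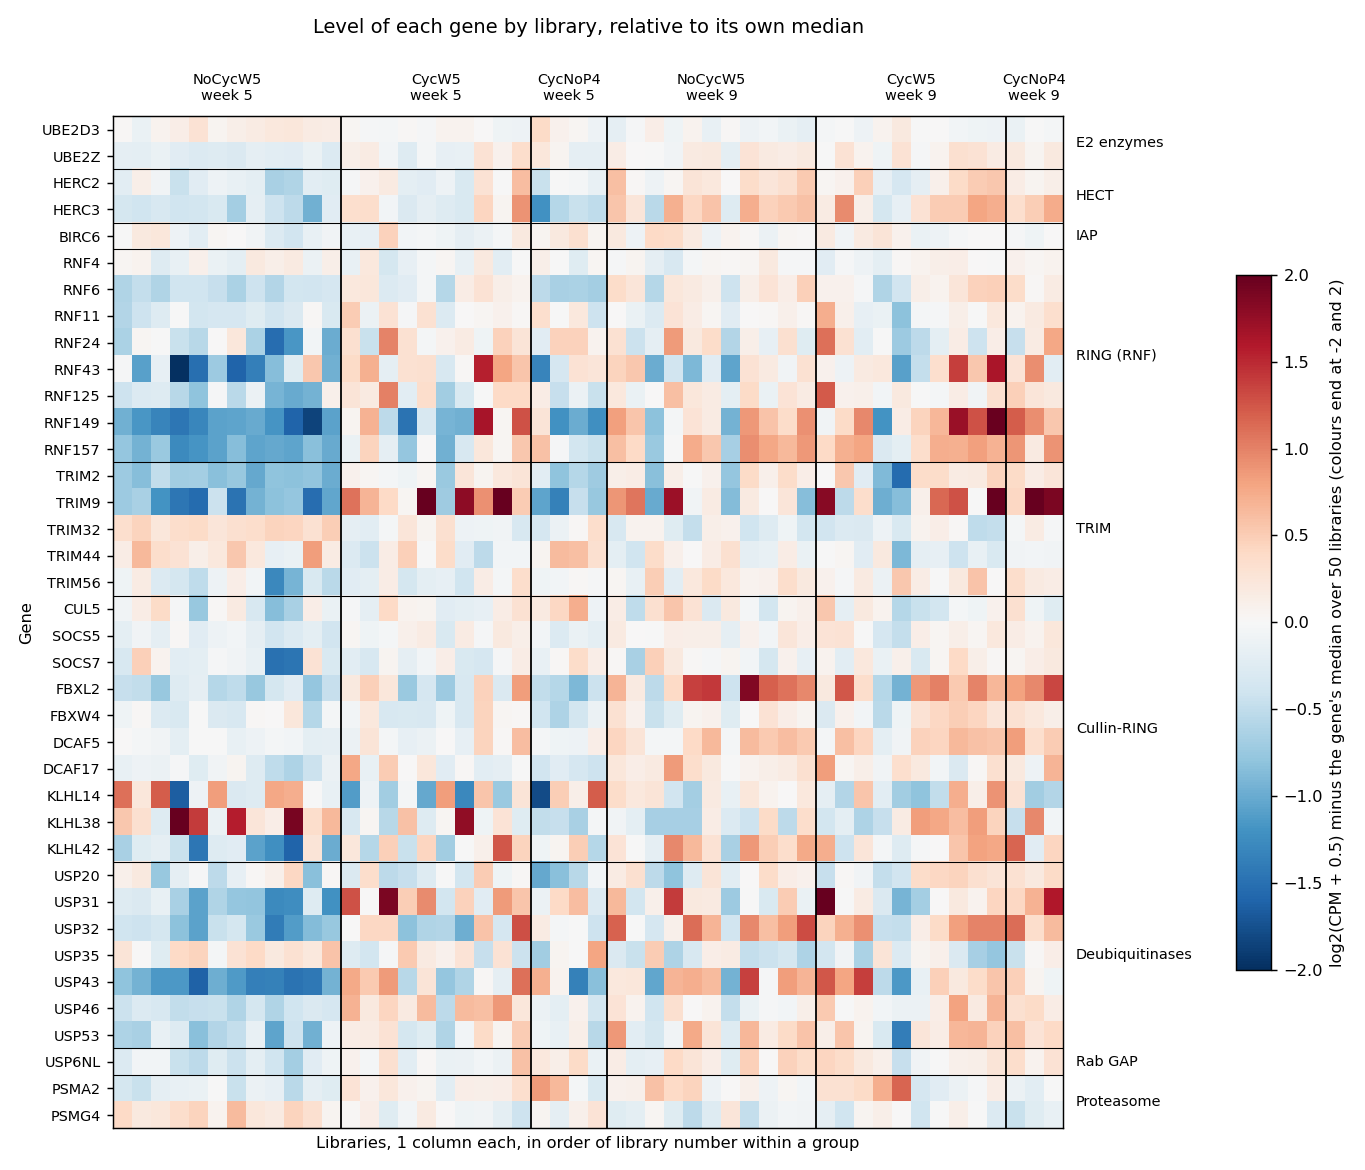
Heat map of 38 of the 41 genes (rows, grouped by role) over the 50 libraries (columns, grouped by cyclicity status and week), coloured by log2(CPM + 0.5) minus the gene's own median over all libraries. TRIM9, RNF149, RNF157, USP43 and USP31 are below their medians in nearly all 12 NoCycW5 libraries of week 5, TRIM32 is above its median, and RNF4 and BIRC6 stay near the median throughout.

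The E2 enzymes UBE2D3 and UBE2Z moved in opposite directions. UBE2D3, which works with many RING ligases, had a log2 fold change between CycW5 and NoCycW5 cows of -0.12 ± 0.05 (standard error) at week 5 (BH P = 0.0407), with mean levels of 146 ± 6.02 CPM in CycW5 (n = 10) and 160 ± 12.1 in NoCycW5 libraries (n = 12). Its identifier carries the symbol UBE2D3 but a description naming UBE2D2, and reads of these near-identical paralogs may be shared, so this value is uncertain. UBE2Z, which takes ubiquitin from the E1 enzyme UBA6, went the other way and was higher in CycW5 cows (180 ± 25.4 against 150 ± 5.45 CPM, log2 fold change 0.26 ± 0.06, BH P = 0.00231). Both had been chosen for the change in NoCycW5 cows, which shares NoCycW5 libraries of week 5 with this test.

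The HECT ligases HERC3 and HERC2 were higher in CycW5 than in NoCycW5 cows at week 5, by less than 1 on the log2 scale. HERC3 had 21.4 to 37.5 CPM (median 32.4) in NoCycW5 and 34.2 to 79.1 (median 42.4) in CycW5 libraries, and at week 9 the medians were 60.9 (29.1 to 70.0) in NoCycW5 and 56.0 (33 to 82.4) in CycW5 libraries. Week 5 libraries of the 2 groups overlapped only between 34.2 and 37.5 CPM, and the log2 fold change was 0.57 ± 0.15 (BH P = 0.00396). HERC2, which takes part in the DNA damage response, differed by 0.29 ± 0.11 (BH P = 0.0431). Both were chosen for the change in NoCycW5 cows, in which their log2 fold changes were 0.83 ± 0.15 and 0.48 ± 0.11.

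RNF149, a membrane-bound RING protein, had 26.7 to 50.1 CPM (median 43.1) in NoCycW5 and 34.8 to 308 (median 89.3) in CycW5 libraries at week 5. In the NoCycW5 cows at week 9 it had 50.4 to 185 CPM (median 126), above every NoCycW5 library of week 5, and the CycW5 libraries of week 9 had 42.2 to 384 (median 144). The CycW5 libraries were thus widely spread, from within the NoCycW5 range to several times above it, and the week 5 difference was 1.53 ± 0.31 on the log2 scale (BH P = 0.000292). RNF157, a RING ligase studied mainly in neurons, had 13.3 to 19.4 CPM (median 16.0) in NoCycW5 and 16.7 to 48.1 (median 31.5) in CycW5 libraries at week 5. Week 9 medians were 50.4 CPM in NoCycW5 (19.5 to 63.4) and 53.6 in CycW5 cows (26.8 to 58.5). NoCycW5 libraries of the 2 weeks did not overlap, while at week 5 the 2 lowest CycW5 libraries lay within the NoCycW5 range. The week 5 difference was 0.96 ± 0.17 (BH P = 6.92e-05), and the changes that chose RNF157 were 1.47 ± 0.17 in NoCycW5 and 0.58 ± 0.18 in CycW5 cows.

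RNF6, a RING ligase, had 20.4 to 25 CPM (median 23.2) in NoCycW5 and 21.1 to 38.8 (median 33.8) in CycW5 libraries at week 5, and 21.1 to 44.1 (median 36.1) and 20.7 to 44.5 (median 33.6) at week 9. The NoCycW5 libraries of week 5 were tightly grouped, the other 3 groups were not, and the week 5 difference was 0.50 ± 0.11 (BH P = 0.000751). RNF24, a RING protein listed for week 5 cyclicity and for a microbiota PC, had 0.992 to 4.55 CPM (median 2.53) in NoCycW5 and 2.65 to 8.10 (median 4.48) in CycW5 libraries, against 2.38 to 7.28 (median 4.15) and 2.10 to 8.78 (median 3.52) at week 9. Its groups overlapped at both weeks; the difference that chose it was 0.73 ± 0.23, and the rise in NoCycW5 cows was 0.58 ± 0.23 (BH P = 0.0457). RNF11, an adaptor of NEDD4-type ligases, and RNF125, a ligase that acts on the viral RNA sensor RIG-I, were chosen for week 5 cyclicity (0.39 ± 0.10 and 0.70 ± 0.18) and rose in NoCycW5 cows by 0.29 ± 0.10 (BH P = 0.0177) and 0.65 ± 0.17 (BH P = 0.00345). RNF4, a ligase directed to SUMO-modified proteins, was the steadiest of the series, with group means between 140 ± 17.8 and 152 ± 2.25 CPM and BH P of 0.609 or more in all 8 comparisons.

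TRIM proteins carry a RING, B-box and coiled-coil module. TRIM9, a ligase best known from neurons, had 1.71 to 4.24 CPM (median 2.73) in NoCycW5 and 3.42 to 45.5 (median 10.7) in CycW5 libraries at week 5. At week 9 it had 2.69 to 20.5 CPM (median 6.64) in NoCycW5 and 2.77 to 32.4 (median 7.0) in CycW5 libraries. Only the lowest CycW5 library of week 5, library 57, fell within the NoCycW5 range. In the week 5 comparison that chose TRIM9 its log2 fold change was 2.56 ± 0.41, the largest among the 41 genes in that comparison. Its rise in NoCycW5 cows, from week 5 libraries of which some helped choose it, was 1.53 ± 0.40 (BH P = 0.00272). TRIM2, a ligase with NHL repeats that is known from axons, had 135 to 196 CPM (median 158) in NoCycW5 and 165 to 328 (median 284) in CycW5 libraries at week 5, and 154 to 357 (median 298) and 94.3 to 399.9 (median 310.1) at week 9. Library 57 was again the only CycW5 library of week 5 within the NoCycW5 range, and the 2 comparisons that chose TRIM2 gave 0.82 ± 0.16 at week 5 and 0.82 ± 0.15 over the weeks in NoCycW5 cows.

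TRIM32, a ligase known from muscle, was one of the few genes with less RNA in CycW5 cows. It had 17.6 to 21.3 CPM (median 19.2) in NoCycW5 and 11.9 to 18.8 (median 14.1) in CycW5 libraries at week 5, and 10.6 to 16.3 (median 12.5) and 10.3 to 16.5 (median 12.2) at week 9. No NoCycW5 library of week 9 reached the level of any NoCycW5 library of week 5. The week 5 difference was -0.39 ± 0.09 (BH P = 0.00088). TRIM56, a ligase of innate immunity, was chosen for the change in NoCycW5 cows (0.48 ± 0.13) and differed by 0.23 ± 0.13 at week 5 (BH P = 0.207). TRIM44, chosen by a microbiota PC, differed by -0.33 ± 0.13 (BH P = 0.0556).

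**Figure D2:**
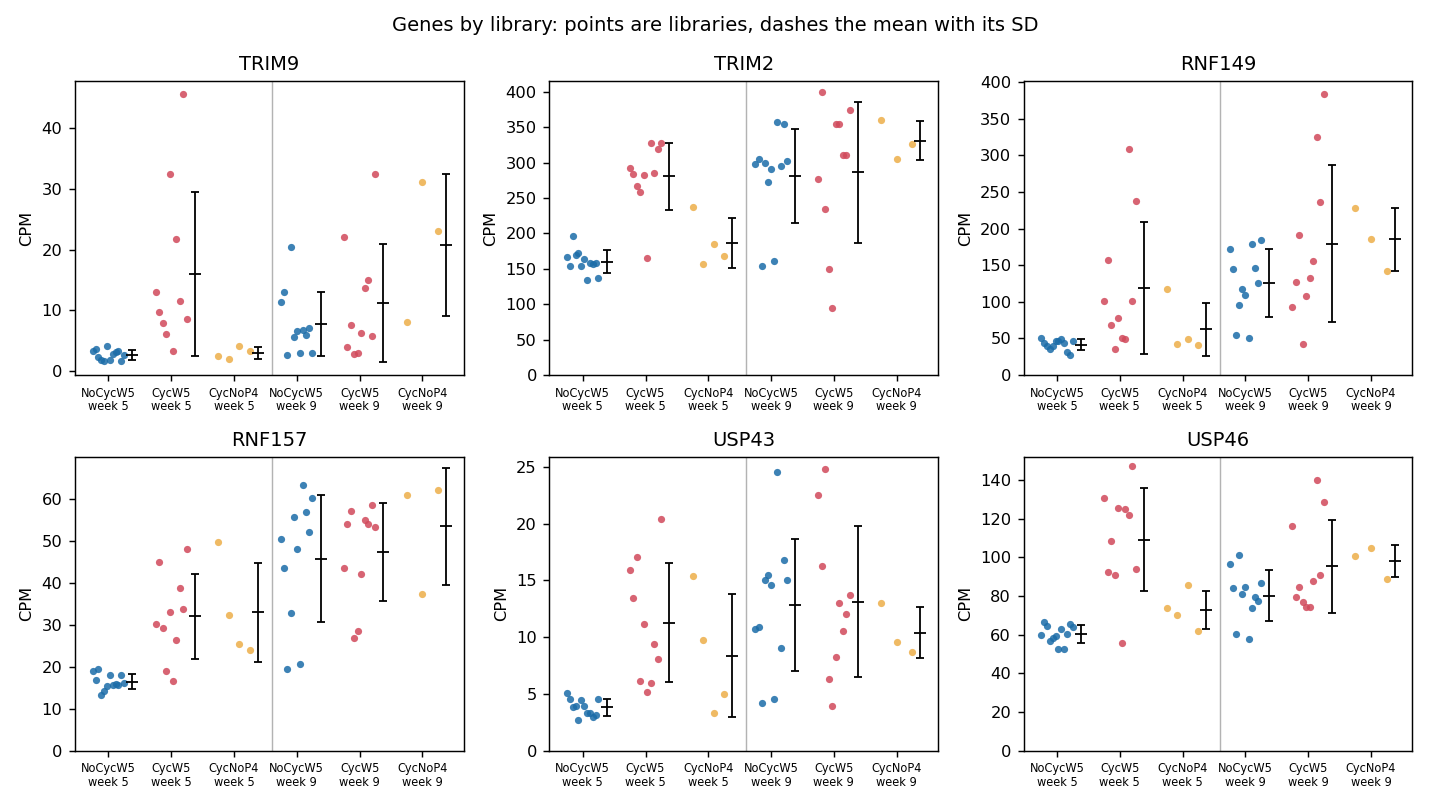
CPM (vertical axes, from 0 or just below) of 6 genes in each of the 50 libraries, with groups along the horizontal axes; points are libraries and the bar beside them is the mean with its SD. In the NoCycW5 cows of week 5 all 6 genes lie in a narrow low band, while CycNoP4 libraries of week 5 match that band for TRIM9 (2.01 to 4.16 CPM) but not for RNF157 (24 to 49.8 CPM).

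The cullin-RING genes were mixed. CUL5, the scaffold that SOCS proteins use, was chosen by a microbiota PC and differed by 0.15 ± 0.14 at week 5 (BH P = 0.439) and by 0.20 ± 0.14 over the weeks in NoCycW5 cows (BH P = 0.262). SOCS5, a suppressor of cytokine signaling chosen for week 5 cyclicity, rose in NoCycW5 cows by 0.26 ± 0.07 (BH P = 0.00336), whereas SOCS7 changed by 0.19 ± 0.17 (BH P = 0.392). KLHL42, a BTB-kelch adaptor of CUL3 chosen for week 5 cyclicity, had 1.63 to 7.25 CPM (median 3.95) in NoCycW5 and 3.52 to 14.9 (median 6.77) in CycW5 libraries at week 5. At week 9 the NoCycW5 libraries had 3.62 to 12.1 CPM (median 7.76) and the CycW5 libraries 4.34 to 10.8 (median 6.58). Its NoCycW5 groups overlapped between the weeks. The rise, from week 5 libraries of which some helped choose KLHL42, was 1.07 ± 0.24 on the log2 scale (BH P = 0.000621).

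DCAF17, a substrate receptor of CUL4 ligases also chosen for week 5 cyclicity, had 8.26 to 13.4 CPM (median 11.7) in NoCycW5 and 10.9 to 22.4 (median 12.9) in CycW5 libraries at week 5, and 12.8 to 23.6 (median 14.7) and 10.4 to 23.5 (median 13.7) at week 9. The NoCycW5 libraries overlapped between the weeks only from 12.8 to 13.4 CPM, and the rise from these shared week 5 libraries was 0.48 ± 0.12 (BH P = 0.00201). DCAF5, a receptor of the same kind, was chosen for that change (0.47 ± 0.10) and differed by 0.19 ± 0.10 at week 5 (BH P = 0.168). The F-box protein FBXL2, a receptor of CUL1 ligases, had the largest change in NoCycW5 cows among the cullin-RING genes with more RNA at week 9, from 11.6 ± 1.74 (n = 12) to 31.2 ± 15 CPM (n = 11), as a description of the comparison that chose it, and differed by 0.56 ± 0.24 at week 5 (BH P = 0.0743).

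KLHL14 stood in 4 lists, for week 5 cyclicity, 2 microbiota PCs and the change in CycW5 cows. It had 0.798 to 8.97 CPM (median 3.91) in NoCycW5 and 1.16 to 6.81 (median 2.64) in CycW5 libraries at week 5, and 2.04 to 4.74 (median 4.10) and 1.82 to 7.12 (median 3.06) at week 9. All groups overlapped, and the comparisons that chose it gave -0.60 ± 0.31 at week 5 and 0.25 ± 0.32 over the weeks in CycW5 cows. KLHL38, a BTB-kelch protein known from skeletal muscle and the lowest of the 41 in reads (3 to 184 per library, median 14.0), was chosen by a microbiota PC. It had 0.311 to 5.88 CPM (median 0.819) in NoCycW5 and 0.154 to 2.80 (median 0.451) in CycW5 libraries at week 5, and 0.109 to 0.766 (median 0.302) and 0.127 to 1.23 (median 0.70) at week 9. NoCycW5 libraries overlapped between the weeks and a few of them at week 5 were far above the rest. The fall in NoCycW5 cows was -2.13 ± 0.50 (BH P = 0.00109).

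Of the 7 deubiquitinases, USP43, USP31, USP46, USP32 and USP53 had more RNA in CycW5 cows at week 5. USP43 had 2.67 to 5.06 CPM (median 3.89) in NoCycW5 and 5.20 to 20.4 (median 10.3) in CycW5 libraries at week 5, and at week 9 it had 4.21 to 24.5 (median 14.6) and 3.89 to 24.8 (median 12.5). Its week 5 groups did not overlap, the lowest CycW5 library lying just above the highest NoCycW5 library, and the comparisons that chose it gave 1.57 ± 0.27 at week 5 and 1.75 ± 0.27 over the weeks in NoCycW5 cows. USP31 had 3.17 to 7.45 CPM (median 4.93) in NoCycW5 and 6.35 to 32 (median 12.2) in CycW5 libraries at week 5, and 4.83 to 22.8 (median 9.04) and 4.13 to 40.7 (median 8.58) at week 9. Overlap at week 5 was confined to the stretch from 6.35 to 7.45 CPM. The difference that chose USP31 was 1.48 ± 0.30, and its rise in NoCycW5 cows was 0.98 ± 0.30 (BH P = 0.00926).

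USP46, which works with WD-repeat partners, was chosen for week 5 cyclicity (0.86 ± 0.12, from 60.2 ± 4.72 CPM in NoCycW5 to 109 ± 26.4 in CycW5 libraries) and rose in NoCycW5 cows by 0.42 ± 0.12 (BH P = 0.00466). USP32, a membrane-anchored enzyme, and USP53, a protein of tight junctions, were chosen for the change in NoCycW5 cows (1.36 ± 0.23 and 0.80 ± 0.17) and were higher in CycW5 cows at week 5 by 0.81 ± 0.24 (BH P = 0.00924) and 0.56 ± 0.17 (BH P = 0.0151). USP35 was listed for the change in CycW5 cows, where it was -0.25 ± 0.16. In NoCycW5 cows, whose libraries did not choose it, it had 6.29 to 11.4 CPM (median 9.17) at week 5 and 4.73 to 10.9 (median 5.78) at week 9. These ranges overlapped widely, yet the median dropped, and the log2 fold change was -0.48 ± 0.15 (BH P = 0.0111). The CycW5 libraries had 5.29 to 11 CPM (median 7.66) at week 5 and 4.17 to 9.04 (median 6.10) at week 9. USP6NL, the Rab regulator, was higher in CycW5 cows at week 5 by 0.35 ± 0.10 (BH P = 0.0105).

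The 2 proteasome genes moved apart. PSMA2, an alpha subunit of the core particle, had 70.4 to 102 CPM (median 90.8) in NoCycW5 and 88.6 to 129 (median 112) in CycW5 libraries at week 5, and 95.3 to 154 (median 109) and 81.1 to 231 (median 121) at week 9. It was chosen for week 5 cyclicity (0.37 ± 0.12) and rose in NoCycW5 cows by 0.40 ± 0.12 (BH P = 0.00867), with overlapping libraries. PSMG4 had 34.5 to 51.6 CPM (median 40.2) in NoCycW5 and 24.7 to 37.8 (median 31.6) in CycW5 libraries at week 5, and 22.8 to 39.3 (median 28.9) and 25 to 35.9 (median 33.1) at week 9. NoCycW5 libraries of week 5 were mostly above the other 3 groups, and the week 5 difference was -0.37 ± 0.09 (BH P = 0.00148).

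**Figure D3:**
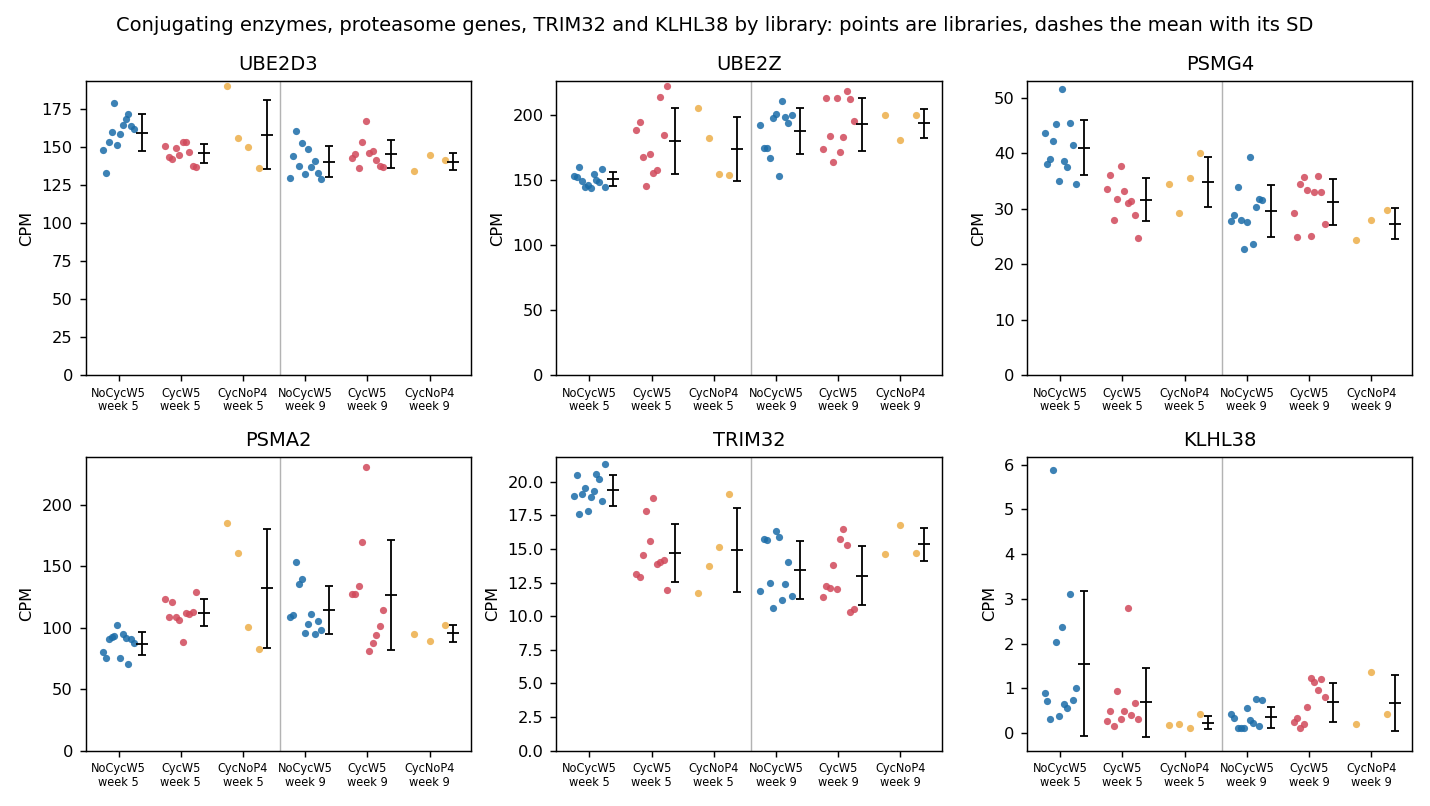
CPM of UBE2D3, UBE2Z, PSMG4, PSMA2, TRIM32 and KLHL38 in each library (points), with the mean and SD of each group; groups run along the horizontal axes. TRIM32 and PSMG4 are mostly highest in the NoCycW5 cows of week 5 (medians 19.2 and 40.2 CPM), and PSMA2 is widely spread in the CycNoP4 cows of week 5 (83.0 to 185 CPM) and the CycW5 cows of week 9 (81.1 to 231 CPM).

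At week 9, when all cows had been synchronized, none of the 41 genes differed between CycW5 and NoCycW5 cows by edgeR, where 0.00646% of all genes (1 gene) were called. At an unadjusted P under 0.05, 1 of the 41 was found (USP46, log2 fold change 0.26 ± 0.12, BH P = 0.766), and DESeq2 and limma-voom called 0. From week 5 to week 9 in CycW5 cows, 0 of the 38 genes not chosen by that change were called, where 0.0452% of all genes (7 genes) were called, and 2 had an unadjusted P under 0.05, DCAF5 (0.28 ± 0.11, BH P = 0.214) and FBXL2 (0.52 ± 0.25, BH P = 0.333). DESeq2 and limma-voom called 0 of the 38, but limma-voom with library quality weights called 10, where that fit called 20.5% of all genes.

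The change in NoCycW5 cows minus that in CycW5 cows is given as a description for most genes, since the comparisons that chose them enter it. At a BH P of 0.05 or less 6 genes had a positive and 2 a negative difference, where 7.82% of all genes were called (4.99% and 2.83%). The number called among all genes went from 1210 to 1963 without CycW5 library 57, 2130 without NoCycW5 library 76 and 1979 without NoCycW5 library 91. The log2 differences were 2.02 ± 0.57 for TRIM9, 1.52 ± 0.38 for USP43, 0.90 ± 0.25 for RNF157, 0.78 ± 0.22 for TRIM2, 0.60 ± 0.17 for USP46 and 0.53 ± 0.16 for RNF6. For PSMG4 the log2 difference was -0.46 ± 0.12. Of the 9 genes chosen by microbiota alone, which this difference did not choose, 0 were called by edgeR and 1, KLHL38, had an unadjusted P under 0.05 (-2.15 ± 0.71, BH P = 0.0539); DESeq2 called 1, limma-voom 0, and edgeR 1 without library 91.

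CycNoP4 cows were cycling without P4 at week 5, and no list of the study drew on their libraries. Compared with NoCycW5 cows at week 5, 4 of the 41 genes were higher and 2 lower, where 16.4% of the 16120 genes tested were called (9.92% higher and 6.52% lower). This comparison shares NoCycW5 libraries of week 5 with those that chose most of the genes. RNF157 had 49.8, 32.4, 25.5 and 24 CPM in libraries 51, 56, 58 and 64, all above the NoCycW5 range of 13.3 to 19.4 (log2 fold change 1.0 ± 0.23, BH P = 0.00383). PSMA2 had 185, 160.5, 100.3 and 83.0 CPM, the first 2 above the NoCycW5 range and the other two within it (0.60 ± 0.17, BH P = 0.0126). USP6NL had 25.6, 24.1, 28.9 and 20.2 CPM against 13.6 to 21.3 (median 18.4) in NoCycW5 libraries, with overlap only for library 64 (0.46 ± 0.14, BH P = 0.0186). USP43 had 15.3, 9.74, 3.29 and 4.96 CPM, from far above the NoCycW5 range to within it (1.13 ± 0.35, BH P = 0.025).

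Lower than in NoCycW5 cows were KLHL38, with 0.19, 0.198, 0.113 and 0.439 CPM in the CycNoP4 libraries (-2.70 ± 0.79, BH P = 0.0176), and TRIM32, with 11.7, 13.8, 15.2 and 19.1 CPM (-0.37 ± 0.12, BH P = 0.0321). Both overlapped the NoCycW5 libraries, TRIM32 by library 64 alone. These counts rested on single libraries: 0, 1, 3 and 11 of the 41 genes were called without library 51, 56, 58 or 64, respectively, while the genes called among all those tested went from 2650 to 153, 853, 1720 and 4775. RNF157 was lost only without library 51 (BH P = 0.107). USP43 was lost without library 51 or 56 (BH P = 0.325 and 0.102), PSMA2 without the same libraries (0.20 and 0.0978), and USP6NL, TRIM32 and KLHL38 without any one of 51, 56 and 58 (BH P from 0.0566 to 0.231). Library 51 had the lowest TMM factor of the 50 libraries (0.854) and the highest summed epithelium markers of its group (896 CPM). Of these markers, KRT8 (0.92 ± 0.17, BH P = 0.00074) and EPCAM (0.87 ± 0.30, BH P = 0.0411) were called higher in CycNoP4 than in NoCycW5 cows. CLDN4 (1.26 ± 0.60, BH P = 0.134) and OVOL2 (0.52 ± 0.41, BH P = 0.383) were not. KRT8 had been listed for week 5 cyclicity, which shares NoCycW5 libraries with this comparison. The part of the TMM factor and the markers in these calls was not tested. With only the groups compared in the fit, 6 of the 41 genes were called, where 5.84% of all genes were, and TRIM32 (BH P = 0.0516) and KLHL38 (BH P = 0.0556) were not among them.

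Compared with CycW5 cows at week 5, 4 of the 41 genes were lower in CycNoP4 cows and 0 were higher, where 17.9% of all genes were called (9.62% higher and 8.29% lower). At an unadjusted P under 0.05, 2 of them had higher values without being called by edgeR, TRIM44 among them, and DESeq2 and limma-voom each called 1 gene higher. TRIM9 had 2.58, 2.01, 4.16 and 3.28 CPM in libraries 51, 56, 58 and 64 against 3.42 to 45.5 in CycW5 libraries, 3 of the 4 lying below the CycW5 range (-2.41 ± 0.62, BH P = 0.00674). RNF6 had 21.9, 20.04, 20.4 and 19.5 CPM, library 51 alone reaching into the CycW5 range of 21.1 to 38.8 (-0.65 ± 0.15, BH P = 0.0036). HERC3 had 18, 28.4, 31.1 and 29.5 CPM, all below the CycW5 libraries (-0.82 ± 0.22, BH P = 0.00795). USP46 had 73.8, 69.9, 85.4 and 62.0 CPM, all within the range of the CycW5 libraries (55.7 to 147, median 115; -0.58 ± 0.16, BH P = 0.012). TRIM9, RNF6 and USP46 were called whichever CycNoP4 library was left out, and HERC3 was lost without library 51 (BH P = 0.0715). With only the groups compared in the fit, 4 of the 41 were called, where 11.5% of all genes were, and USP46 was not among them (BH P = 0.0635). TRIM9 and USP46 were chosen by the study from some of these CycW5 libraries of week 5 and some of the NoCycW5 libraries.

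The 2 comparisons side by side gave TRIM9 a log2 fold change of 0.15 ± 0.53 against NoCycW5 cows (BH P = 0.863) and RNF157 one of 0.04 ± 0.24 against CycW5 cows (BH P = 0.921). Mean levels at week 5 in CycNoP4, NoCycW5 and CycW5 libraries were 3.01 ± 0.923, 2.70 ± 0.841 and 16.0 ± 13.4 CPM for TRIM9 (n = 4, 12 and 10) and 32.9 ± 11.8, 16.5 ± 1.88 and 32 ± 10.1 CPM for RNF157. The CycNoP4 mean was thus near the NoCycW5 mean for the one gene and near the CycW5 mean for the other. Summed epithelium markers in the same CycNoP4 libraries were 466.1 to 896 CPM, against 333 to 1211 in CycW5 and 228 to 459 in NoCycW5 libraries.

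**Figure D4:**
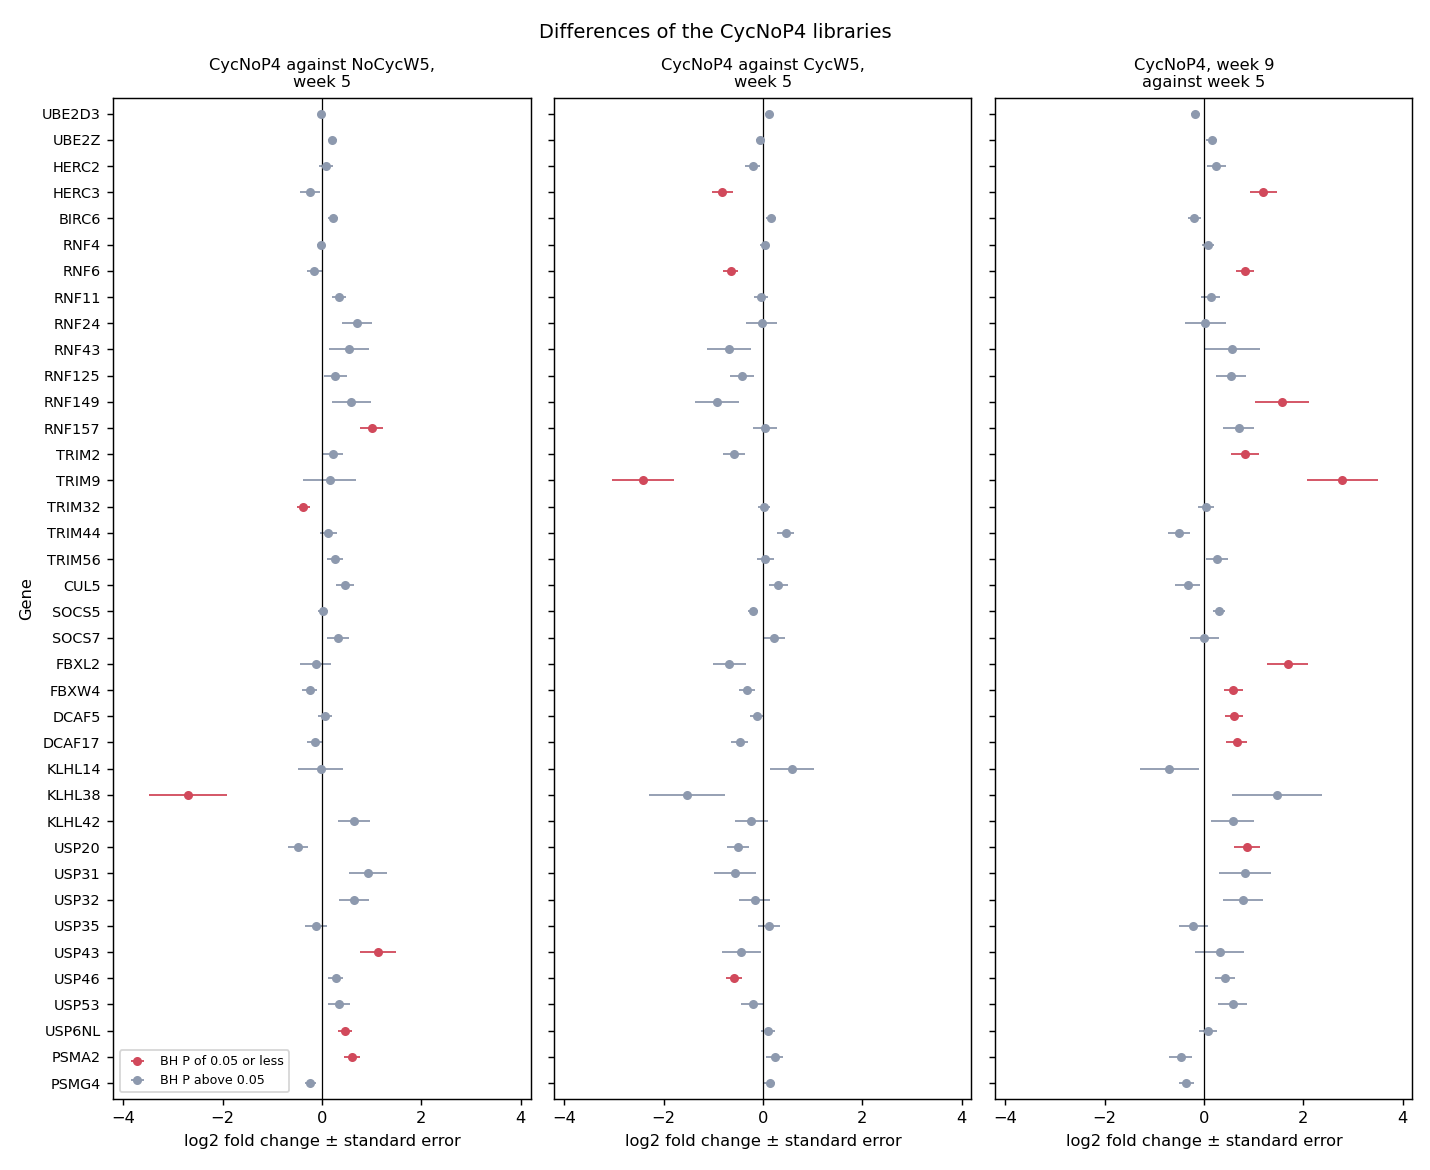
Log2 fold changes (horizontal axes, with standard errors) of 38 of the 41 genes (rows) in 3 comparisons of the CycNoP4 libraries; red points have a BH P of 0.05 or less. TRIM9 is at -2.41 against CycW5 cows, at 0.15 against NoCycW5 cows and at 2.78 from week 5 to week 9.

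The change from week 5 to week 9 in CycNoP4 cows compared libraries that no list of the study drew on. The gene family was, however, taken up with earlier results of these data known. The spread behind the P values was estimated over all 50 libraries, which hold those behind the lists. Of the 41, 10 rose and 1 fell, where 19.6% of all genes were called (9.74% higher and 9.85% lower). With only these 7 libraries in the fit, 5 of the 41 were called, where 8.1% of all genes were: HERC3, RNF6, FBXL2, TRIM9 and TRIM2. The median log2 fold change of the 41 was 0.32, against -0.02 over all genes tested, and 32 of the 41 had a positive value. Only HERC3, RNF6, FBXL2 and TRIM9 were called whichever of the 7 libraries was left out, and the number called then lay between 4 (without library 79) and 12 (without library 64), where 7.95% and 28.1% of all genes were called. With 4 libraries against 3, these values rest on few cows.

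HERC3 rose from 18, 28.4, 31.1 and 29.5 CPM to 53.5, 59.5 and 71.2 CPM in libraries 79, 88 and 94 of week 9 (log2 fold change 1.20 ± 0.26, BH P = 0.00377). RNF6 rose from 19.5 to 21.9 CPM at week 5 to 41.1, 32.1 and 35.7 at week 9 (0.83 ± 0.19, BH P = 0.00476). FBXL2 rose from 11.4, 10.9, 8.46 and 12.0 CPM to 28.9, 32.2 and 42.1 (1.69 ± 0.41, BH P = 0.00624). In each of the 3 genes every week 9 library was above every week 5 library. TRIM9 rose from 2.01 to 4.16 CPM to 8.05, 31.1 and 23.1 (2.78 ± 0.71, BH P = 0.0082), the widest step of the 41 genes and also without overlap. With so few libraries, 21 of the 41 genes did not overlap between the weeks in these cows, genes that were not called among them. The share without overlap over all genes was not counted, so nothing is read from the lack of overlap here or below.

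Further genes called in CycNoP4 cows were lost in some of the fits with 1 library less, and RNF149, DCAF17, DCAF5, USP20 and FBXW4 also in the fit of the 7 CycNoP4 libraries alone (BH P from 0.0552 to 0.117). RNF149 had 117, 42.1, 49.1 and 41.3 CPM at week 5 and 228, 186 and 142 at week 9 (1.57 ± 0.54, BH P = 0.0348), and was called only where library 51 was left out. TRIM2 had 237, 157, 184 and 167 CPM and then 360.3, 305 and 327 (0.83 ± 0.27, BH P = 0.0287). DCAF17 (0.66 ± 0.22, BH P = 0.0287), DCAF5 (0.60 ± 0.18, BH P = 0.0196), USP20 (0.87 ± 0.27, BH P = 0.0205) and FBXW4 (0.59 ± 0.19, BH P = 0.0286) also rose, each with all week 9 libraries above all week 5 libraries. DCAF17 was lost without library 51, 58, 79 or 94 (BH P up to 0.298), DCAF5 without 79 (0.137), TRIM2 without 56, 58, 79, 88 or 94 (up to 0.103), USP20 without 51, 56, 79 or 94 (up to 0.0769), and FBXW4 in all but the fit without library 64 (up to 0.0966).

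The other genes with values by library were not called in this change. USP43 had 13.0, 9.53 and 8.70 CPM at week 9 (0.32 ± 0.49, BH P = 0.666) and USP31 11.3, 13.9 and 26.2 after 7.67, 11.1, 13.0 and 6.79 at week 5 (0.83 ± 0.52, BH P = 0.251). RNF157 had 60.9, 37.4 and 62.0 CPM at week 9 (0.70 ± 0.31, BH P = 0.102). RNF24 had 3.19, 5.41, 5.44 and 4.02 CPM at week 5 and 2.63, 4.32 and 6.86 at week 9 (0.03 ± 0.41, BH P = 0.968), and KLHL14 had 0.684, 5.22, 3.93 and 8.95 and then 4.47, 2.02 and 2.20 (-0.70 ± 0.60, BH P = 0.418). TRIM32 was at 14.6, 16.8 and 14.7 CPM at week 9 (0.04 ± 0.16, BH P = 0.882). Summed epithelium markers of these cows were 643 ± 198 CPM at week 5 and 714 ± 271 at week 9. None of the 4 markers was called, with log2 fold changes of 0.15 ± 0.42 for EPCAM (BH P = 0.82), -0.36 ± 0.24 for KRT8 (BH P = 0.289), 0.88 ± 0.83 for CLDN4 (BH P = 0.462) and 1.38 ± 0.56 for OVOL2 (BH P = 0.0699). The stroma marker PDGFRA was at 444 ± 201 and then 752 ± 235 CPM (0.76 ± 0.30, BH P = 0.067), and the endothelium markers summed to 295 ± 73.1 and 259 ± 39.8 CPM. The part of these markers in the changes of CycNoP4 cows was not tested.

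**Figure D5:**
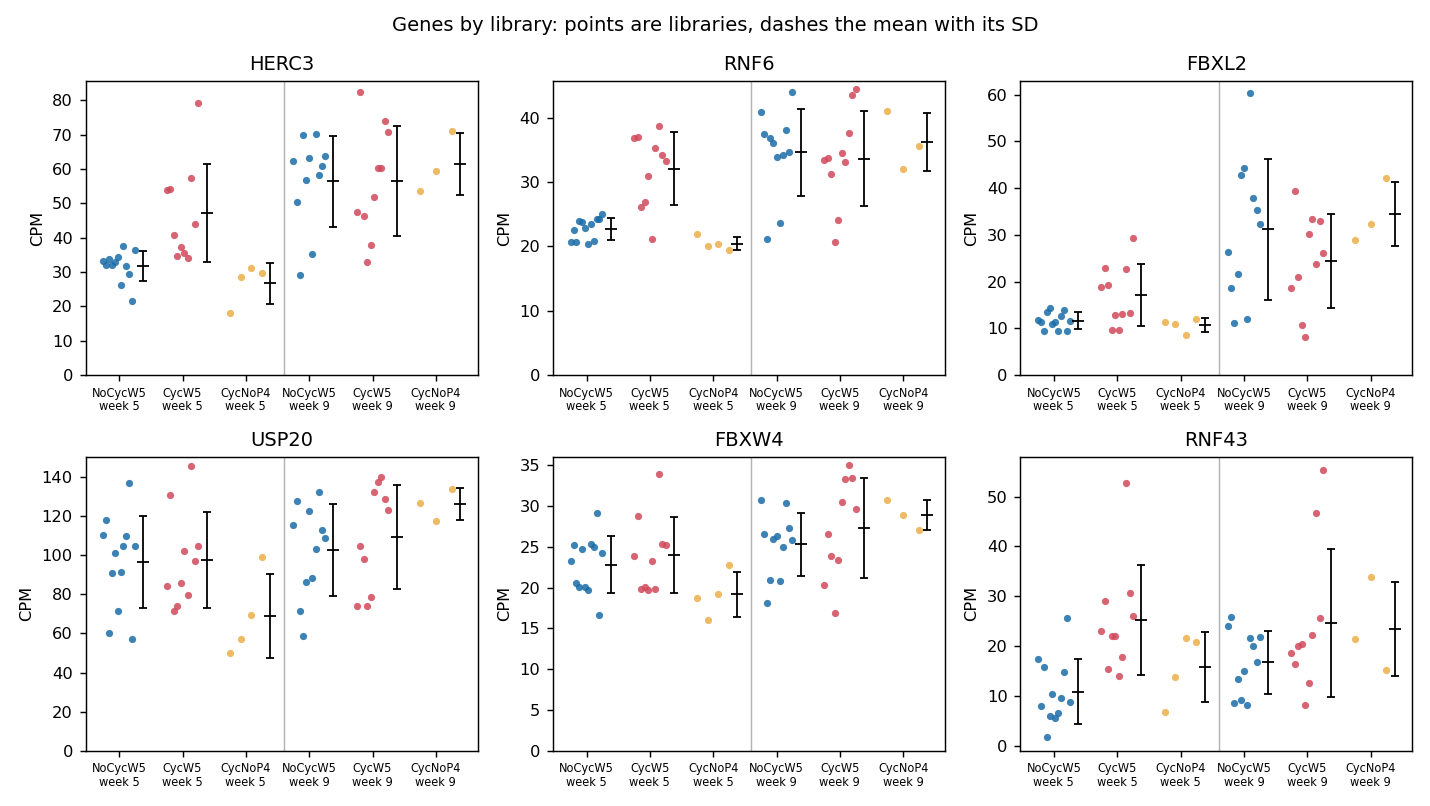
CPM of HERC3, RNF6, FBXL2, USP20, FBXW4 and RNF43 in each library (points), with the mean and SD of each group; groups run along the horizontal axes. For HERC3, RNF6, FBXL2, USP20 and FBXW4, the 3 CycNoP4 libraries of week 9 lie above the 4 of week 5, while RNF43 overlaps.

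The 9 genes chosen by a microbiota PC alone were tested in every comparison, although the PCs themselves cannot be linked to the libraries. Their lists were made from week 5 values of part of the CycW5 and NoCycW5 cows, in a model that also held cyclicity and week. P values that draw on these libraries are thus not free of the choice, among them those of RNF43 at week 5 and of KLHL38 in NoCycW5 cows. RNF43, a membrane ligase that removes Wnt receptors from the cell surface, was higher in CycW5 cows at week 5 (1.23 ± 0.31, BH P = 0.00339). It had 1.66 to 25.7 CPM (median 9.17) in NoCycW5 and 14.0 to 52.6 (median 22.5) in CycW5 libraries, with overlap from 14.0 to 25.7, and a mean at week 9 of 16.7 ± 6.35 (n = 11) and 24.6 ± 14.9 (n = 10). The other 8 were not called at week 5: BIRC6, a very large inhibitor of apoptosis with E2 and E3 activity (0.05 ± 0.08, BH P = 0.647), CUL5, FBXW4, an F-box protein (0.08 ± 0.11, BH P = 0.639), KLHL38 (-1.16 ± 0.49, BH P = 0.0764), RNF4, SOCS7 (0.09 ± 0.18, BH P = 0.73), TRIM44 and USP20, a deubiquitinase also called VDU2 (0.02 ± 0.15, BH P = 0.925). USP20 and FBXW4 were called only in the CycNoP4 cows over the weeks. USP20 had 50.1, 57.2, 69.5 and 99.2 CPM at week 5 and 127, 118 and 134 at week 9 in those cows, against means of 96.5 ± 23.7 and 103 ± 23.6 CPM in NoCycW5 cows. Whether these changes differ between the groups of cows was not tested.

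Other genes of the pathway were taken from lists written for this comparison with earlier results known, and could be matched only where the study's lists gave a symbol. Beyond the 41, 1 of 33 E2 enzymes, 4 of 27 HECT ligases and 1 of 33 cullin-RING core and neddylation genes were matched; no ubiquitin precursor, E1 enzyme, proteasome regulatory subunit or immunoproteasome subunit was. CDC34, the E2 of the SCF ligases, was higher in CycW5 cows at week 5 (0.37 ± 0.09, BH P = 0.00145) but not over the weeks in NoCycW5 cows (0.08 ± 0.08, BH P = 0.496). HECW1, a NEDD4-type ligase, was chosen for the change in NoCycW5 cows (2.78 ± 0.43) and was higher in CycW5 cows at week 5 (1.63 ± 0.42, BH P = 0.00381). It was the only one of these 6 genes called over the weeks in CycNoP4 cows (2.05 ± 0.75, BH P = 0.0476), and the call was lost with DESeq2's size factors, limma-voom, no filter or only the groups compared, and without library 56, 58, 64, 79, 88 or 94. HECW2, of the same subfamily, rose in NoCycW5 cows by 0.59 ± 0.21 (BH P = 0.0251). AREL1, a ligase named for resistance to apoptosis, was chosen for week 5 cyclicity (0.22 ± 0.08). Its change in NoCycW5 cows, from week 5 libraries of which some helped choose it, was 0.22 ± 0.08. HUWE1, a very large HECT ligase, had a log2 fold change of 0.01 ± 0.07 at week 5 (BH P = 0.906). COPS4, a subunit of the COP9 signalosome, was chosen for the change in NoCycW5 cows (-0.18 ± 0.06) and had -0.05 ± 0.06 at week 5 (BH P = 0.537).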

How the data were processed

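Stranded mRNA libraries of 50 endometrial biopsies were sequenced. After trimming, the authors mapped reads with Hisat2 (cattle assembly UMD3.1), assigned them to genes of the Ensembl annotation, and deposited raw whole-number counts; the methods name FeatureCounts for this step, whereas the submitters' processing notes list StringTie, and the strand setting and tool versions are not given in the sources used here. The authors' lists were used to select the members, to tell which comparison chose each and to pair identifiers with symbols; the fold changes and P values they hold were not used. Results of 3 of the 41 genes are counted in totals but not reported here by gene. The members and lists were chosen with earlier results of these data known.

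Counts were fitted in R 4.3.3 with edgeR 4.0.16 (TMM, filterByExpr, robust quasi-likelihood F test) as group means, in 1 fit of the CycW5 and NoCycW5 libraries and 1 of all 50 libraries for the CycNoP4 comparisons. P values were adjusted by the Benjamini-Hochberg method (BH P) over all genes tested. Standard errors came from the log2 fold change and its F statistic. Fits were tested on simulated data with 200 changed genes. The lowest mean chi-square per gene between any of 1225 library pairs was 27.9, where sampling noise gives a value near 1, so no library was treated as a repeat.

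Values by library are given for members in more than one list, the 3 largest changes of each choosing comparison, and up to 3 called members per direction with the smallest BH P in each other comparison; further members are named with their fold changes. Alternatives were DESeq2 1.42.0 (size factors, Wald test), limma 3.58.1 (voom, plain or weighting libraries by quality), omission of the filter, a filter of at least 1 CPM in at least 10 libraries, other sets of libraries in the fit, and leaving out libraries. Leaving out CycW5 libraries 70 and 89 and NoCycW5 libraries 63, 76 and 91 was chosen after seeing the data. Sequences, coordinates and gene lengths were not used here.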

Additional observations from a re-analysis of the deposited data

Results flagged for a closer look

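Among 20 genes with values by library, 60 groups of 4 to 10 libraries were examined for a library far from the rest of its group, and 9 were found. Chance flags about 1 in 20 groups if values are normally distributed, which was not checked for these CPM. The NoCycW5 groups (12 and 11 libraries) and the CycNoP4 group of week 9 (3 libraries) were outside this range of sizes and were not examined. In CycW5 cows at week 9, library 72 stood above its group with 40.7 CPM of USP31, 23.5 of DCAF17 and 8.78 of RNF24. In CycW5 cows at week 5, single libraries stood high for HERC3 (library 70, 79.1 CPM), KLHL42 (library 67, 14.9 CPM), KLHL38 (library 59, 2.80 CPM) and RNF24 (library 45, 8.10 CPM). TRIM2 was low in library 57 of that group, with 165 CPM. In CycNoP4 cows at week 5, library 51 had 117 CPM of RNF149, while the other 3 libraries had 41.3 to 49.1 CPM.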

How the results depend on the processing

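No paired analysis was possible from the labels, because nothing in them tells which libraries share a cow, and their replicate numbers only name them. In the deposited counts, many week 5 libraries stand directly before a week 9 library of the same cyclicity status, as for every CycNoP4 library of week 9. Whether this order pairs the biopsies of a cow is not stated, and fits paired by it were not run. The comparisons between the weeks therefore treat all libraries as unpaired. Directions were compared only for genes that a comparison had picked for values by library, as called or among its 3 largest changes, and only in that comparison. None of these reversed under any alternative run. Other directions given above, among them those of genes not called, were not compared. Counts of called genes among those not chosen by a comparison stayed within 1.5 times of the reported count, under the alternatives planned for it, for CycW5 against NoCycW5 at week 5 (14 to 17 against 15, with 12 and 13 without libraries 70 and 63, which were left out after seeing the data) and week 9 (0) and for the change in NoCycW5 cows (12 to 16 against 13). With library quality weights, limma-voom called 10 rather than 0 of 38 in the change of CycW5 cows, 1 rather than 0 of 9 in the difference between the changes, 10 rather than 6 of 41 for CycNoP4 against NoCycW5 and 7 rather than 4 of 41 for CycNoP4 against CycW5. DESeq2's Wald test called 1 and 7 in the second and last of these. Fitting only the groups compared gave 5 rather than 11 in the change of CycNoP4 cows. Leaving out 1 CycNoP4 library gave 0 to 11 genes against NoCycW5 cows, 3 to 7 against CycW5 cows and 4 to 12 in the change of CycNoP4 cows. Of the 6 further pathway genes, 1 was called in that change, 0 with DESeq2's size factors, limma-voom, no filter or only the groups compared, 2 with quality weights, and 0 to 1 with 1 library left out. The causes of these shifts were not tested.

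Over all genes, counts also moved. The change in CycW5 cows had 7 calls by edgeR, 243 by DESeq2's Wald test and 3181 with quality weights, and the difference between the changes had 1210, 1848 and 3161. Without NoCycW5 library 91, 1 rather than 0 of 9 genes was called in the latter. The change in CycNoP4 cows went from 3158 to 1231 with only the groups compared. KLHL38, with few reads, was lost against NoCycW5 cows in CycNoP4 libraries with quality weights (BH P = 0.0697) and with only the groups compared (BH P = 0.0556). With 3 or 4 CycNoP4 libraries, small differences were not detectable.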
